A study of Drosophila melanogaster with 8 samples.

Results

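The odorant-binding proteins described here are those of the *Obp19* and *Obp99* gene clusters of *Drosophila melanogaster*. They were taken as every clone on a spotted 2-colour cDNA array whose single platform gene symbol begins with Obp19 or Obp99. There were 10 such clones of 8 genes among the 8448 clones on the array, of which 2833 carried 1 gene symbol. *Obp19a*, *Obp19b*, *Obp19d*, *Obp99a*, *Obp99b* and *Obp99c* had 1 clone each, and *Obp19c* and *Obp99d* had 2 clones each. All 10 clones had a value on all 8 arrays, and no clone was lost to a filter. In the RefSeq gene table these are all 4 genes named Obp19 and all 4 named Obp99.

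The series tested the array platform by comparing like with like. All RNA came from 8 separate pools of about 240 adult females of the wild-type strain Oregon-R, 4 to 10 days after emergence, kept at 16 h of light and 8 h of dark and 60% relative humidity. Every pool had been sprayed with ethanol (99%, 2 mL, in a spray device called a Potter's tower) 6 h before sampling, and no pool was left unsprayed. Pools 1 and 2, 3 and 4, 5 and 6, and 7 and 8 formed pairs 1 to 4. Each pair was hybridised on 2 arrays, a normal-label array with the odd-numbered pool in Cy3 and the even-numbered pool in Cy5, and a reversed-label array with the dyes exchanged, which gives 4 arrays in each label group. No contrast of treatment, sex or genotype exists among these samples. In a pool of whole flies, fewer cells of a type and less RNA per cell cannot be told apart.

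Odorant-binding proteins are small secreted proteins of the fluid that bathes chemosensory neurons. In insects they are held to carry hydrophobic odorants and pheromones to receptors on the neurons, and several are also made outside the sense organs, in fat body, gut or reproductive tract. Many of the genes lie in tandem clusters. The 4 Obp19 genes are direct neighbours on the X chromosome with no protein-coding gene between them in the RefSeq table. The 4 Obp99 genes lie on chromosome arm 3R in the order *Obp99a*, *Obp99c*, *Obp99d*, *Obp99b*, with 5, 1 and 1 protein-coding genes between successive members. *Obp19d* is also known as Pbprp2, a pheromone-binding protein relative of olfactory and gustatory organs. *Obp99b* is also known as tsx (turn on sex-specificity), a gene first studied for sex-biased expression in the fat cells of the head. RefSeq lists Obp99b, Obp99c and Obp99d also as older names of *Obp99c*, *Obp99d* and *Obp99b*, so that clones were matched here by gene identifier and not by name alone.

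Each value is a log2 ratio of the 2 pools on an array, averaged over the 2 spots of a clone, with the sign as deposited. Base 2 is an inference from how large the values are. Ratios carry no level, so that neither the abundance of a transcript nor the presence of tissue markers could be checked. A difference between pools should keep its sign when the dyes are exchanged, and an effect of the dye should turn its sign. The half-sum of the 2 arrays of a pair is called the pool difference, and the half-difference the dye component. Which pool was the numerator stays unknown. On normal-label arrays the numerator pool carries what is called dye A here, and the denominator pool dye B. The reading that the sign follows the pools and not the dyes rests on arrays with no RNA in common: across all clones, a normal-label array and a reversed-label array from another pair correlated at a median of -0.157, with 9 of 12 such coefficients below 0. On the reversed-label array of pair 3 the values ran with those of its own normal-label array (correlation 0.222 across clones), while the other pairs gave -0.071, -0.118 and -0.144.

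**Figure D1:**
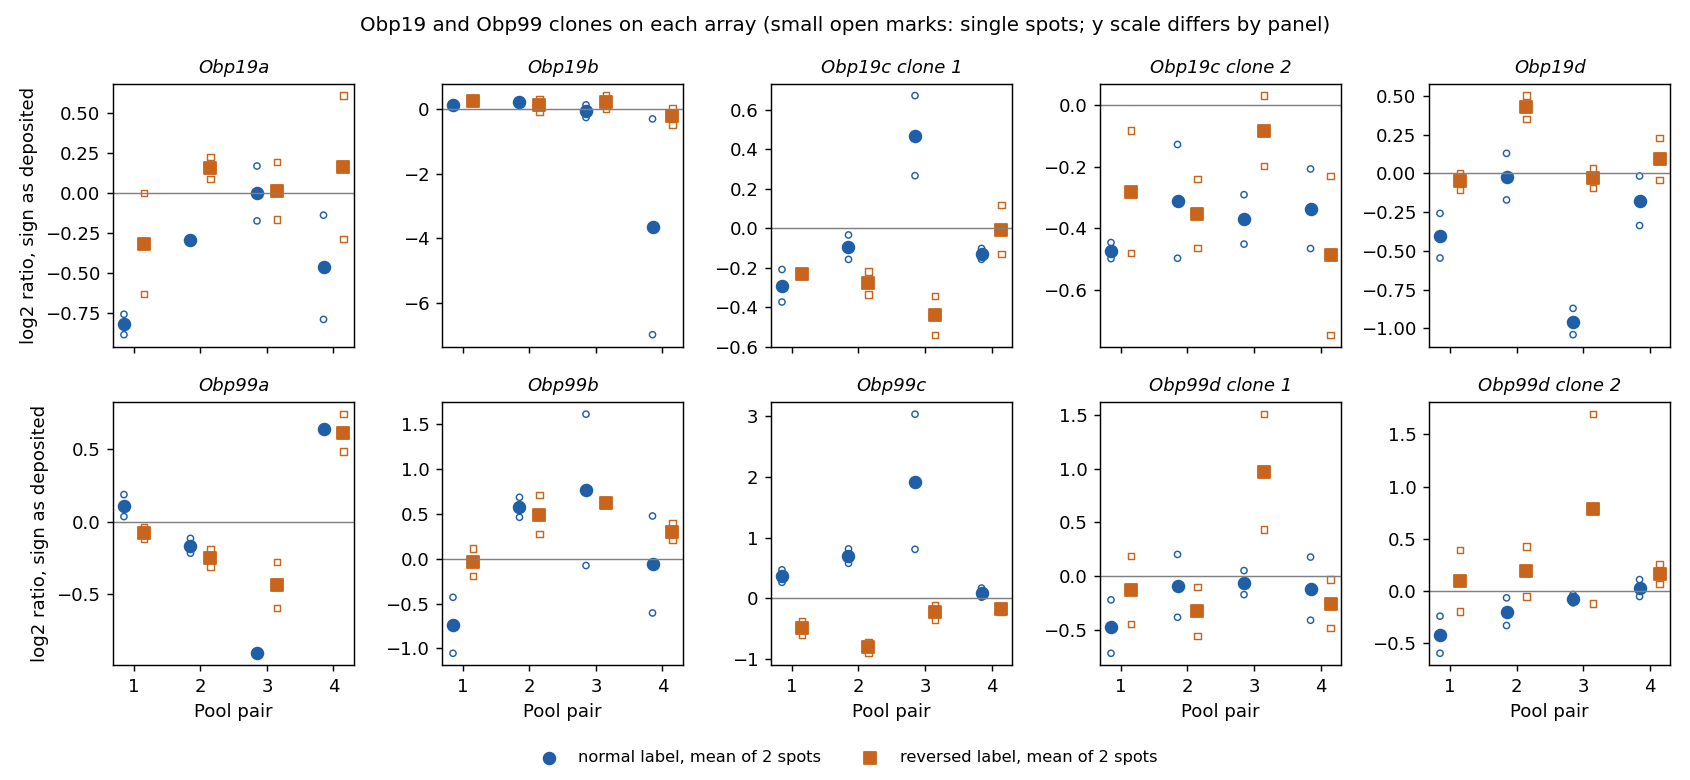
Log2 ratio (y axis, sign as deposited, scale differing by panel) of each of the 10 clones on the normal-label (blue circles) and reversed-label (orange squares) array of pool pairs 1 to 4 (x axis); large marks are the mean of the 2 spots and small open marks the single spots. *Obp99c* lies above 0 on the 4 normal-label arrays and below 0 on the 4 reversed-label arrays, while *Obp99a* in pairs 2, 3 and 4 lies on the same side of 0 on both arrays.

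The members' ratios varied more than those of the typical clone. The SD over 8 arrays had a median of 0.42 among the 10 clones, against 0.30 over all 8448 clones. It was lowest for the second *Obp19c* clone, at 0.13 (2.83% of all clones were lower), and highest for *Obp19b*, at 1.33 (99.3% were lower). *Obp99c* followed at 0.85 (98.0% lower) and *Obp99a* at 0.52 (89.0% lower). The gap between the 2 spots of a clone, as its median over arrays, was 0.28 for the typical member and 0.20 for the typical clone of the array. *Obp99a* had the closest spots, with a median gap of 0.11, and the first *Obp99d* clone the widest, at 0.54. Past 2-fold on at least 1 array were 2 of 10 members, *Obp19b* and *Obp99c*, beside 12.8% of all clones. *Obp99c* was past 2-fold on the normal-label array of pair 3, as were 7.63% of all clones. *Obp19b* was the 1 member past 2-fold in a pair average, beside 3.12% of all clones.

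*Obp99c* showed the largest dye component of the members and was the single one that passed the test. On the normal-label arrays of pairs 1 to 4 its log2 ratio was 0.37, 0.70, 1.92 and 0.09. On the reversed-label arrays it was -0.49, -0.81, -0.23 and -0.18. All 4 normal-label values lay above all 4 reversed-label values, and the sign turned in 4 of 4 pairs. The label groups did not overlap for 2 of 10 members and for 12.8% of all clones, and the sign turned in 4 of 4 pairs for 1 member and for 7.99% of all clones.

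The dye component of *Obp99c* was 0.43, 0.75, 1.07 and 0.14 in pairs 1 to 4, a mean of 0.60 ± 0.40 (SD, n = 4 pairs, 95% interval 0.26 to 0.93, limma adjusted p = 0.0469 over 8448 clones). Pair 4 was the lowest and pair 3 the highest. At the same 5% threshold 1 of 10 members was called, beside 8.56% of all clones (4.25% towards dye A and 4.31% towards dye B), so that the members' share was near the background. The call ended when single spots were used: the odd-numbered spots alone gave 0.74 (limma adjusted p = 0.107) and the even-numbered spots alone 0.46 (adjusted p = 0.113). It also ended without pair 1 (0.65, adjusted p = 0.125), without pair 2 (0.55, adjusted p = 0.164) and without pair 3 (0.44, adjusted p = 0.101), but not without pair 4 (0.75, adjusted p = 0.0448). The calls over all clones fell with it: of 723, there were 49 and 182 with odd-numbered and even-numbered spots alone, and 3, 4, 21 and 359 with pairs 1 to 4 left out in turn. With 1 array left out and the other 7 taken as independent it ended in all 8 cases, with means from 0.41 (no normal-label array of pair 3) to 0.67 and limma adjusted p from 0.0612 (no reversed-label array of pair 3, mean 0.65) to 0.223. Over all clones there were then 501 calls with that last array left out and 0 with any other.

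The high value of pair 3 came largely from 1 spot. On that normal-label array the odd-numbered spot of *Obp99c* read 3.03 and the even-numbered spot 0.81, a gap of 2.22, while on the other 7 arrays the gaps ranged from 0.09 to 0.25. With either spot the sign on each of the 8 arrays was the same as in the mean. Whether *Obp99c* differed from the other members in its dye component was not tested.

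**Figure D2:**
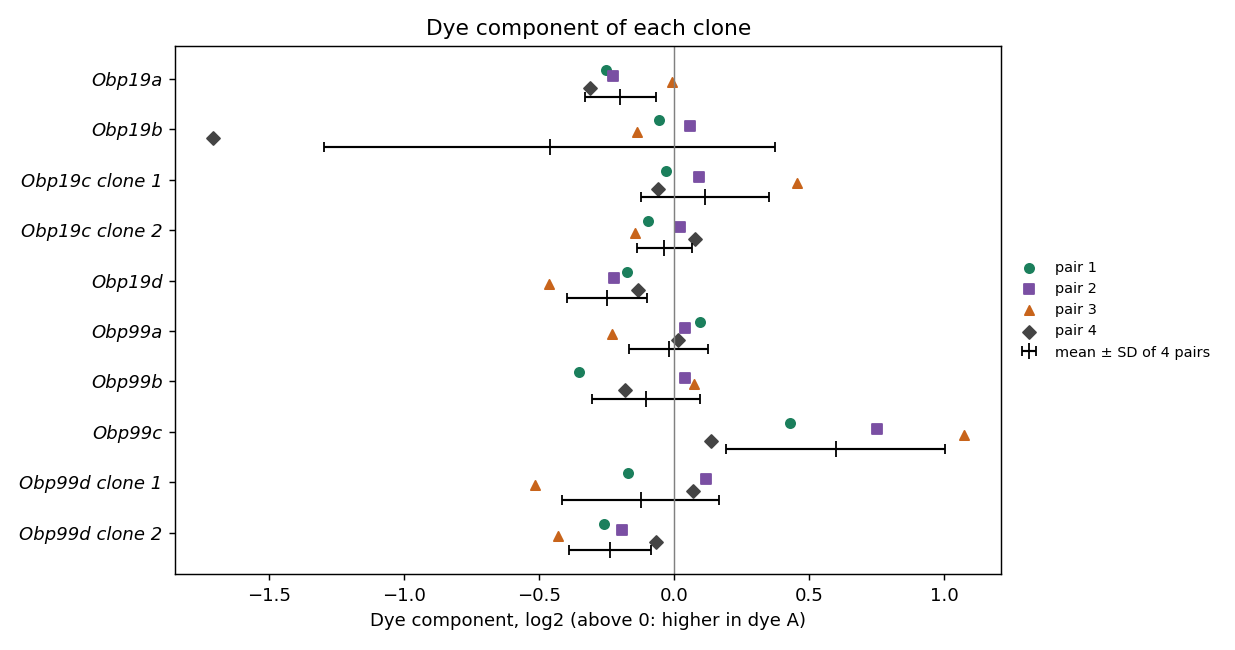
Dye component (x axis, log2 units, above 0 for higher in dye A) of each of the 10 clones in pool pairs 1 to 4 (coloured marks), with the mean ± SD of the 4 pairs in black. *Obp99c* is above 0 in all 4 pairs with a mean of 0.60, while *Obp19a*, *Obp19d* and the second *Obp99d* clone are below 0 in all 4 pairs with means of -0.20, -0.25 and -0.24.

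Of the members, 3 clones leaned to dye B in 4 of 4 pairs, with spots averaged, without passing the test. How many of all clones kept 1 dye sign in 4 of 4 pairs was not counted. Single spots did not keep the lean in every pair. On the even-numbered spots of pair 4, *Obp19a* read -0.14 on the normal-label and -0.29 on the reversed-label array. There *Obp19d* read -0.02 and -0.04. On the odd-numbered spots of pair 3, the second *Obp99d* clone read -0.117 and -0.123. *Obp19d* stood at -0.40, -0.02, -0.96 and -0.18 on the normal-label arrays of pairs 1 to 4. On the reversed-label arrays it stood at -0.05, 0.43, -0.03 and 0.09. Normal-label values were the lower in each pair, but the groups overlapped. The dye component was -0.25 ± 0.15 (SD, n = 4 pairs, limma adjusted p = 0.0901).

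The second clone of *Obp99d* read -0.42, -0.20, -0.08 and 0.03 on the normal-label arrays and 0.10, 0.18, 0.79 and 0.16 on the reversed-label arrays. Its label groups did not overlap, which makes it the other member of which that holds. Its dye component was -0.24 ± 0.15 (limma adjusted p = 0.105, n = 4 pairs). *Obp19a* gave -0.20 ± 0.13 (limma adjusted p = 0.142, n = 4 pairs). Its pair values were -0.25, -0.23, -0.01 and -0.31. At an unadjusted p under 5% these 3 clones and *Obp99c* made 4 of 10, against 26.5% of all clones.

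The remaining 6 clones had dye components of both signs over the pairs. Their means ran from -0.46 ± 0.84 for *Obp19b* to 0.11 ± 0.24 (SD, n = 4 pairs) for the first *Obp19c* clone, with limma adjusted p from 0.327 to 0.889. *Obp99a* had the mean closest to 0, at -0.02 (95% interval -0.20 to 0.16). The median of the 10 dye components was -0.11, against 0.004 over all clones; it was -0.20 for the 5 Obp19 clones and -0.10 for the 5 Obp99 clones.

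*Obp99a* gave the smallest p of the members in the test of pool differences. That test draws on the agreement of the 2 arrays of a pair, so the agreement is not separate support. The arrays of *Obp99a* had the same sign in pairs 2, 3 and 4 but not in pair 1. In pair 4 its log2 ratio was 0.64 on the normal-label array and 0.61 on the reversed-label array. In pair 3 it was -0.90 and -0.44, in pair 2 it was -0.17 and -0.25, and in pair 1 it was 0.11 and -0.08. Pairs 3 and 4 thus lay on opposite sides of 0, each on both arrays, and all 4 spots of each pair had the sign of their pair.

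The pool difference of *Obp99a* was 0.02, -0.21, -0.67 and 0.62 in pairs 1 to 4. The 95% intervals of the limma fit ran from -1.03 to -0.31 in pair 3 and from 0.27 to 0.98 in pair 4 and did not reach 0. Neither passed over all clones, with limma adjusted p = 0.0627 in pair 3 and 0.865 in pair 4. Single-spot values were -0.58 and -0.76 in pair 3 and 0.56 and 0.69 in pair 4. In the F-test over the 4 pairs, which asks whether any pair of pools differs beyond the technical spread, *Obp99a* ranked 240 of 8448 clones (unadjusted p = 0.0053, limma adjusted p = 0.186). Leaving out pair 3 moved its limma adjusted p to 0.57. Leaving out only the normal-label array of that pair moved it to 0.481, and leaving out only the reversed-label array to 0.203. With any other array left out the adjusted p lay between 0.267 and 0.405. The rise without pair 3 was not particular to *Obp99a*. Without that pair the limma adjusted p of *Obp99b* was 0.705 and that of the second *Obp19c* clone 0.627. Among the members it fell only for the first *Obp19c* clone, from 0.784 to 0.753.

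*Obp99b* came next in that test (limma adjusted p = 0.224). Its log2 ratio was -0.74, 0.57, 0.77 and -0.06 on the normal-label arrays of pairs 1 to 4. On the reversed-label arrays it was -0.04, 0.49, 0.62 and 0.30. Both arrays were above 0 in pairs 2 and 3 and below 0 in pair 1. The pool difference was 0.53 in pair 2 (95% interval 0.12 to 0.95, limma adjusted p = 0.545) and 0.69 in pair 3 (95% interval 0.28 to 1.11, limma adjusted p = 0.0757). In pair 3 the spots of the normal-label array were apart, at 1.61 and -0.08, whereas those of the reversed-label array were at 0.59 and 0.64.

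**Figure D3:**
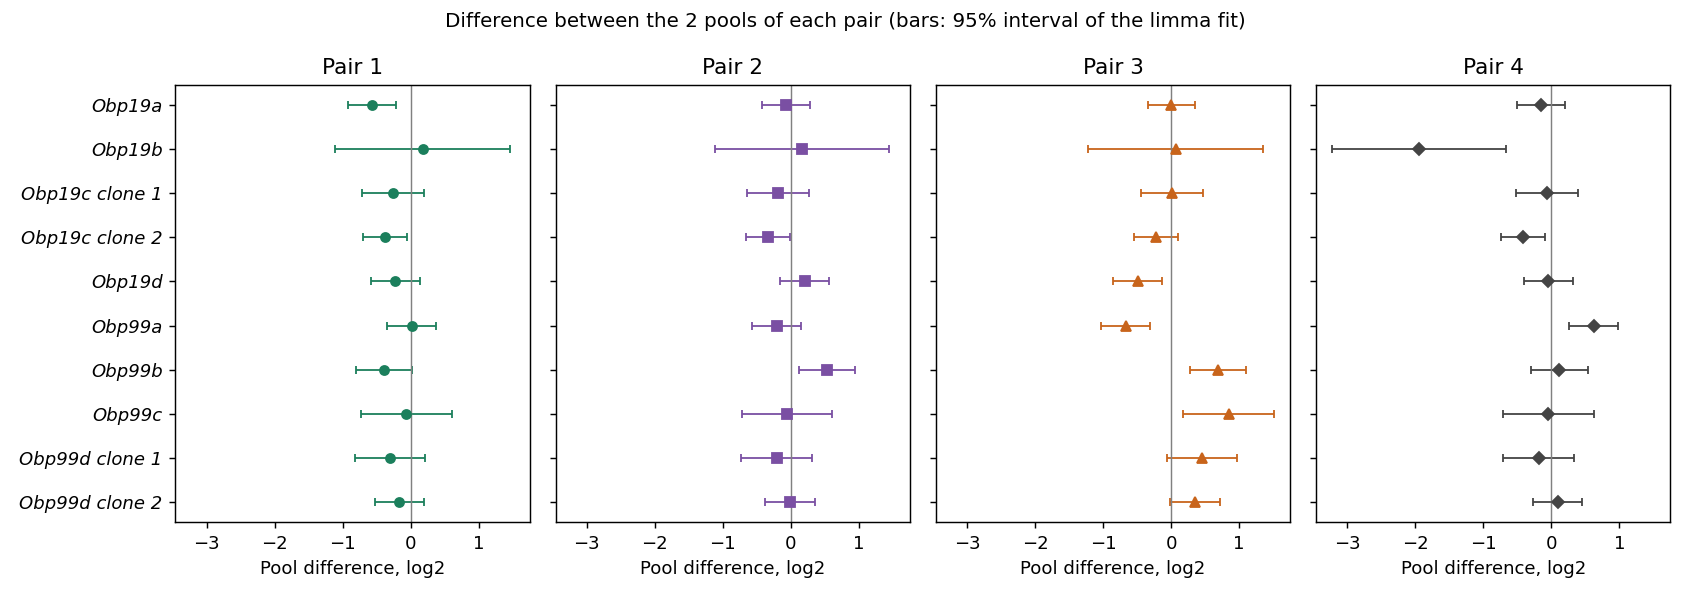
Pool difference (x axis, log2 units) of each of the 10 clones in pool pairs 1 to 4 (panels), with 95% intervals of the limma fit. *Obp99a* lies at -0.67 in pair 3 and 0.62 in pair 4, and *Obp19b* at -1.94 in pair 4 has the widest interval.

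No member passed the test of pool differences in any pair or in the F-test. Over all clones, 0% were called in the F-test and in pairs 1, 2 and 4, and 3.20% in pair 3. At an unadjusted p under 5% the limma F-test held 3 of 10 members (*Obp99a*, *Obp99b* and the second *Obp19c* clone) and 14.9% of all clones. At the same unadjusted level there were 2 members in pair 1 (*Obp19a* and the second *Obp19c* clone), beside 6.5% of all clones, and 2 in pair 2 (*Obp99b* and the second *Obp19c* clone), beside 7.4%. In pair 4 there were 3 (*Obp19b*, *Obp99a* and the second *Obp19c* clone), beside 5.36%. In pair 3 there were 4 members, beside 23.8% of all clones. Besides *Obp99a* and *Obp99b* these were *Obp19d* and *Obp99c*. *Obp19d* had a pool difference of -0.49 and *Obp99c* one of 0.85 (limma adjusted p = 0.112 and 0.131). The *Obp99c* value was 1.48 with the odd-numbered spots and 0.22 with the even-numbered spots.

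Within pair 3, where the median over all clones was 0.005, 4 of 5 Obp99 clones lay above 0. Of these, 2 were the *Obp99d* clones, which lay below 0 on the normal-label array (-0.06 and -0.08) and above 0 on the reversed-label array alone. The median of the Obp99 clones, 0.46, was the value of the first *Obp99d* clone, and that of the Obp19 clones was 0.005. The testis marker ocn stood at -1.36 in the same pair, and the eye marker Galphaq at -0.99 and -0.18 in its 2 clones. Of these, ocn and the Galphaq clone at -0.99 passed in pair 3 (limma adjusted p = 0.0316 for each), as did 3.20% of all clones. The 3 testis markers measured ranged from -1.36 (ocn) to 0.40 (betaTub85D) in pair 3 and from 0.11 (ocn) to 0.24 (betaTub85D) in pair 4. Between them, dj stood at -0.43 in pair 3 and 0.13 in pair 4. Fat body markers stood at 0.0007 (apolpp) and 0.37 (Fbp2) in pair 3 and at -0.53 (apolpp) and 0.01 (Fbp2) in pair 4. The antenna marker lush stood at -0.81, 0.21, -0.40 and 0.04 in pairs 1 to 4. It is itself an odorant-binding gene, and the same clone is counted among the other odorant-binding clones below. The accessory gland marker Acp36DE stood at -0.10, -0.18, -0.33 and 0.16. Testis and accessory gland are male organs, and all pools were of females. Whether the ratios of their markers stand for content of those organs was not tested. Only 9 clones of 8 genes of the marker lists carried a single symbol. Their part in the members' values was not tested.

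*Obp19b* held the single largest ratio among the members, and it was the reading of 1 spot. On the normal-label array of pair 4 the even-numbered spot read -6.99 and the odd-numbered spot -0.31. The mean of the spots was -3.65 on that array, against 0.12, 0.23 and -0.07 on the normal-label arrays of pairs 1 to 3. On the reversed-label arrays it was 0.23, 0.11, 0.20 and -0.23 in pairs 1 to 4. Apart from that array its values ran from -0.23 to 0.23. The pool difference of pair 4 was -1.94 from both spots and -0.14 from the odd-numbered spots alone.

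**Figure D4:**
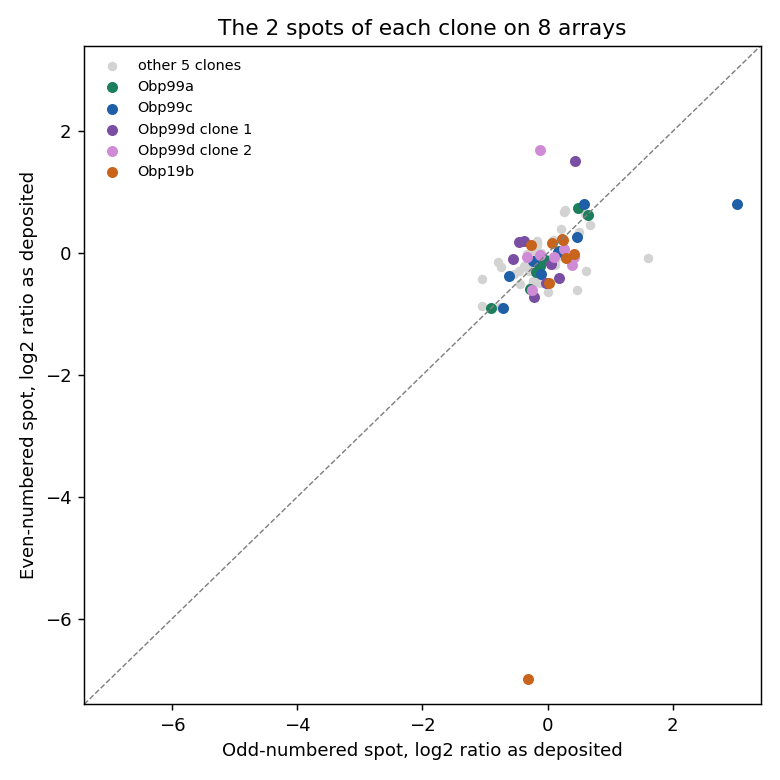
Log2 ratio of the odd-numbered (x axis) against the even-numbered (y axis) spot of each of the 10 clones on the 8 arrays, as deposited, with the line of equality dashed. *Obp99a* keeps close to the line, while *Obp19b* has 1 point at -6.99, *Obp99c* 1 at 3.03 and the *Obp99d* clones 1 each at 1.51 and 1.69.

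Clones of the same gene did not always run together. The 2 clones of *Obp19c* correlated at -0.41 over the 8 arrays, which share RNA within pairs. Even so, both had the same sign on 7 of 8 arrays. The first clone read -0.29, -0.10, 0.47 and -0.13 on the normal-label arrays of pairs 1 to 4 and -0.23, -0.28, -0.44 and -0.01 on the reversed-label arrays. The second clone read -0.47, -0.31, -0.37 and -0.34 on the normal-label arrays and -0.28, -0.35, -0.08 and -0.49 on the reversed-label arrays. The first clone was the higher on 7 of 8 arrays, with the widest gap, 0.84, on the normal-label array of pair 3.

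The second *Obp19c* clone was below 0 on 8 of 8 arrays, a pattern of 1 sign that 0.769% of all clones had. The parity of a pool carries no treatment, and over all clones 0% passed the test of the pool difference averaged over pairs, with 5.34% at an unadjusted p under 5%. That average was -0.34 ± 0.08 (SD, n = 4 pairs, limma adjusted p = 0.821) for the second clone and -0.13 ± 0.12 (adjusted p = 0.821) for the first. Neither passed, and the other members had averages from -0.38 (*Obp19b*) to 0.24 (*Obp99b*). The *Obp19b* average turned to 0.14 without pair 4 and to 0.09 with the odd-numbered spots alone.

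The *Obp99d* clones correlated at 0.83 over the 8 arrays, with 1 array setting both apart. Their correlation without that array was not computed, and they had the same sign on 4 of 8 arrays. On the reversed-label array of pair 3 they stood at 0.97 and 0.79, while the first clone read -0.47, -0.09, -0.06 and -0.12 on the normal-label arrays and -0.13, -0.33 and -0.26 on the reversed-label arrays of pairs 1, 2 and 4. In both clones the even-numbered spot was the high one on that array, at 1.51 and 1.69, against 0.43 and -0.12 for the odd-numbered spots.

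The 17 clones of other odorant-binding genes gave a comparison within the family. Of these, 2 passed in the dye component, beside 8.56% of all clones. Both lay towards dye B, and both were among the 8 clones of the Obp56 and Obp57 clusters: *Obp57c* at -0.55 ± 0.06 (limma adjusted p = 0.018, n = 4 pairs) and *Obp56e* at -0.30 ± 0.11 (adjusted p = 0.0418). The median dye component was -0.09 for the 17 clones, next to -0.11 for the 10 members. In the F-test 0 of the 17 passed, beside 0% of all clones, and 6 had an unadjusted p under 5%, beside 14.9%. In pair 3 the median pool difference of the 17 was -0.27, against 0.04 for the members. That gap was not tested. Of chemosensory receptors and related genes, *Gr97a*, a gustatory receptor gene, had the single clone, with a dye component of 0.26 ± 0.19 (limma adjusted p = 0.106).

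The genes most like each member were sought by Pearson correlation over the 8 arrays among 2376 other genes. Clones of the same gene were averaged first, here and in the correlations between members. The values are descriptive, since the arrays share RNA and dyes. *Obp99c* was followed most closely by *Cyp4g15* (r = 0.98), a cytochrome P450 gene, *CG8520* (r = 0.98) and *alphaTub85E* (r = 0.97), an alpha-tubulin gene. *alphaTub85E* read 2.74, 2.17, 5.69 and 0.70 on the normal-label arrays, with pair 3 the highest and pair 4 the lowest, as for *Obp99c*. On the reversed-label arrays it read -0.36, -2.36, -0.23 and -0.32.

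*Obp99a* was followed by *CG1628* (r = 0.97), *CG3402* (r = 0.96) and *dj-1beta* (r = 0.95). *Obp99b* was nearest to *CG17110* (r = 0.94), *RhoGAP16F* (r = 0.93) and *Dscam1* (r = 0.91). For *Obp99d* the nearest were *Srp68* (r = 0.99), *Tssk* (r = 0.96) and *l(1)G0196* (r = 0.96), all highest on the reversed-label array of pair 3, at 0.61, 2.24 and 3.14. These coefficients were not computed without that array.

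Among the Obp19 genes, *Obp19d* was nearest to *Rilpl* (r = 0.97), *ana* (r = 0.97) and *Imp* (r = 0.97), and *Obp19a* to *chk* (r = 0.93), *OS9* (r = 0.91) and *nompB* (r = 0.90). *Obp19c* was nearest to *Apl* (r = 0.95), *sens* (r = 0.95) and *FBXO11* (r = 0.94). Its 2 clones correlated at -0.41, so that genes near to their mean need not be near to each clone. *Obp19b* was nearest to *Mp* (r = 0.99), which stood at -3.72 on the normal-label array of pair 4, then to *CG7149* (r = 0.87) and *IA-2* (r = 0.87). On that array the *Obp19b* value of -3.65 rested on the spot at -6.99. The coefficients of *Obp19b* therefore rest largely on 1 spot. No member was among the 3 genes nearest to another member. Between members the correlations ran from -0.89 (*Obp19d* with *Obp99c*) to 0.83 (*Obp19a* with *Obp99b*).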

How the data were processed

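The values were the authors' deposited log2 ratios, 1 for each of 16896 spots on 8 arrays, with none missing. Background correction, within-array normalization, log base and numerator are not stated in the labels or the file header, and base 2 is an inference from how large the values are. Array medians as deposited ran from -0.0023 to 0.0011. Per the labels, 80 µg of total RNA was labelled directly for each channel. Without spot intensities no filter on dim spots was possible, and the number of arrays limits the precision. No genome build is named, so no coordinates are given, and sequences are not used here.

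Each array's median was subtracted, and spots 2k-1 and 2k, whose annotation was identical for all 8448 clones, were averaged. All 10 member clones were found by Entrez identifier in the RefSeq table of assembly GCF_000001215.4, used for names and neighbours only. All clones were tested in limma (version 3.58.1, R 4.3.3; lmFit and eBayes) with Benjamini-Hochberg adjustment at 5%. The dye component and the averaged pool difference were tested against 0 over 4 pairs. Pair coefficients and their F-test came from a fit to 8 arrays with a common dye term, with 3 residual degrees of freedom before moderation. Since that residual holds technical spread alone, a call would describe these pools and not pools in general. The pair is the replicate because both arrays carry the same pools. Pools were separate flies. The tests were tried on simulated data. Members, lists and tests were chosen with earlier results of these data known. All members were named, with the 3 genes of highest correlation to each and, of the other lists, clones called in the dye component. Marker and pathway genes given beyond that rule were chosen after their values were seen. Alternatives were no centring, scaling to one spread, quantile normalization, single spots, robust eBayes, a 1% threshold, the other reading of the direction, the replicate block, and leaving out pairs or arrays.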

Additional observations from a re-analysis of the deposited data

Results flagged for a closer look

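In 40 groups of 4 values of the members, 8 held a value far from the other 3; chance gives about 1 in 20, and the groups overlap, since pair values are made from the arrays. For *Obp19b* these were pair 4 at -3.65 among the normal-label arrays, -1.71 among the dye values and -1.94 among the pool differences, all resting on the spot at -6.99. For *Obp99c* it was the pool difference of pair 3, at 0.85. For the first *Obp99d* clone they were the normal-label array of pair 1 at -0.47, the reversed-label array of pair 3 at 0.97 and the pool difference of pair 3 at 0.46. For the second *Obp99d* clone it was the reversed-label array of pair 3, at 0.79.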

How the results depend on the processing

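The *Obp99c* dye call was the one call among the members, and it lay close to the threshold. Its mean was above 0 in all 22 alternatives, from 0.41 to 0.75 outside the other reading of the direction, but the call was lost in 16. It held with no centring, arrays scaled to one spread, quantile normalization, robust eBayes and without pair 4 (limma adjusted p from 0.0423 to 0.0482), and with the pair as a random replicate block over 8 arrays (adjusted p = 0.0302). The number of members called was 0 at a 1% threshold, with odd-numbered or even-numbered spots alone, and with 8 arrays and no replicate block (adjusted p = 0.0959). Leaving out a pair or an array gave 0 to 1 members. If the sign is read as following the dyes (the other reading), it was 0 in the dye component and 1, *Obp99c*, in the averaged pool difference. Over all clones the 723 dye calls became 286 with scaled arrays, 258 with quantile normalization, 182 and 49 with even-numbered and odd-numbered spots, 3 at 1%, 3 to 359 without 1 pair, 0 with no replicate block, 826 with the random block, and 0 without 1 array (501 without the reversed-label array of pair 3). For the F-test and for pair 4 the count of 0 rose to 1, *Obp19b* (F-test adjusted p = 0.0381, 1 of 7 calls over all clones), without the reversed-label array of pair 4, which leaves the spot at -6.99 unopposed; leaving out pairs or arrays thus gave 0 to 1. The other counts were unchanged in the alternatives run. Among the alternatives, 17 of 220 dye values and 14 of 220 averaged pool differences turned their sign; none of these was called in the alternative or as reported. They include the *Obp99c* averaged pool difference (0.17), at -0.05 without pair 3 and -0.08 without its normal-label array.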
